A study of Mus musculus with 8 samples.

Results

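The cytoplasmic adaptors and kinases that carry Toll-like receptor and interleukin-1 receptor signals were followed in 8 whole-lung samples taken 12 h after lipopolysaccharide (LPS), the bacterial outer-membrane component sensed through TLR4. The members were 10 genes chosen by name among 36163 gene names on the array: 8 that pass the signal on (Myd88, Tirap, Ticam1, Ticam2, Irak1, Irak2, Irak4 and Traf6) and 2 that restrain it (Irak3 and Tollip). They were covered by 17 of 55681 probes. The samples came from C57BL/6 mice, 4 wild-type and 4 with a lung-restricted knockout of Ggps1 (written GGPPS1 in the labels), the gene for geranylgeranyl diphosphate synthase, and all 8 mice had received LPS. The driver of the deletion, the age of the mice and the dose and route of LPS were not stated in the labels. Whole lung includes blood-derived and other cells that such a deletion may leave intact. Every value below therefore compares genotypes under LPS, and unstimulated lungs were not analysed here.

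As background, a Toll-like receptor bound to its ligand recruits adaptors through a shared TIR domain. Tirap brings in Myd88, which assembles the kinases Irak4, Irak1 and Irak2 into the Myddosome and passes the signal through the ubiquitin ligase Traf6 to NF-κB and MAP kinases. Ticam2 (TRAM) brings in Ticam1 (TRIF), which leads to interferon and cell death signalling. Irak3 (IRAK-M) lacks strong kinase activity and holds the complex back, and Tollip binds IRAK1 and dampens it. In the lung, alveolar macrophages, recruited monocytes and neutrophils and the epithelium use this pathway to sense inhaled bacteria.

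The probes shown here are those of Irak4 and Traf6, the genes with more than 1 probe on which every probe was lower at an unadjusted p under 0.05. All are from the array files, with positions on build mm9 and the plus strand. For each, bases 1 to 30 are given, and all 60 bases for the Irak4 probe whose position spans 728 bases of the genome, as a probe across a splice junction does. Exon and UTR positions on mm9 were not used here.
Irak4 A_52_P67440, chr15:94397743-94397802: caacatcaccaaactatagtgaacttaaga
Irak4 A_52_P166266, chr15:94384447-94385174: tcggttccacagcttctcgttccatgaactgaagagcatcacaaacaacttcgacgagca
Traf6 A_55_P1998380, chr2:101519206-101519265: ttcccctgtccggggaaggaaatcgcctgc
Traf6 A_52_P510215, chr2:101540660-101540719: ttaactatcgaggtgattcttacttaagac
No member probe shared 20 bases in a row with a probe of another gene name (0 for each of the 17).

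Each sample was hybridised to its own single-colour Agilent array, with 58.1% to 65.3% of its spots well above background. A level is the log2 of the signal after division by the array's 75th percentile, and a difference is the knockout mean minus the wild-type mean of such levels, so that a negative value is a lower level in the knockout lungs. All arrays lay on 1 slide, with wild-type in row 1 and knockout in row 2 of the slide, so slide row and genotype cannot be told apart. The replicate number was the slide column (1 to 4) in both genotypes. The percent of spots at the scanner's surrogate value for undetected signal averaged 17 ± 2.14 over the wild-type arrays and 22.5 ± 1.7 over the knockout arrays (SD, n = 4 each; two-sided exact permutation test, p = 0.0286, the smallest that 4 against 4 allows). The targeted gene Ggps1 differed by -0.06 ± 0.068 (SE; limma, adjusted p = 0.613), and since the deleted part is not given, its probe does not check the labels. Markers of lung were present on all arrays, with the surfactant gene Sftpc at 8.99 in wild-type and 9.08 in knockout and the club cell gene Scgb1a1 at 8.99 and 9.16. Over all 24469 genes tested, 8 rose (0.0327%) and 7 fell (0.0286%) at an adjusted p under 0.05 in limma, and with the arrays centred on their medians 6 rose and 11 fell.

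Every member that could be measured read lower in the knockout lungs, and none passed the test. Of the 10 genes, 9 had a probe above background, and all 9 had a negative difference, against 54.3% of all genes tested. The median of the 9 was -0.20, against -0.03 over all genes, and the differences ran from -0.52 (Irak3) to -0.10 (Irak1). None passed over all genes (limma, 0 of 9, where 0.0286% of all genes fell). At an unadjusted p under 0.05, 4 of 9 were lower (Myd88, Ticam1, Irak4 and Traf6), against 13.4% of all genes, and 0 were higher, against 10.2%. For 3 of the 9 (Ticam1, Irak4 and Tollip) the knockout values lay wholly below the wild-type values, against 9.21% of all genes. Probe by probe, 16 of 17 probes were well above background on all 8 arrays and all 16 were lower, 0 of them past the threshold over all probes (0.0325% of all probes fell), 6 at an unadjusted p under 0.05 (13.4% of all probes) and 5 with groups that did not overlap (9.2% of all probes). In whole-lung RNA, fewer cells that express a gene and less RNA per cell cannot be told apart.

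**Figure D1:**
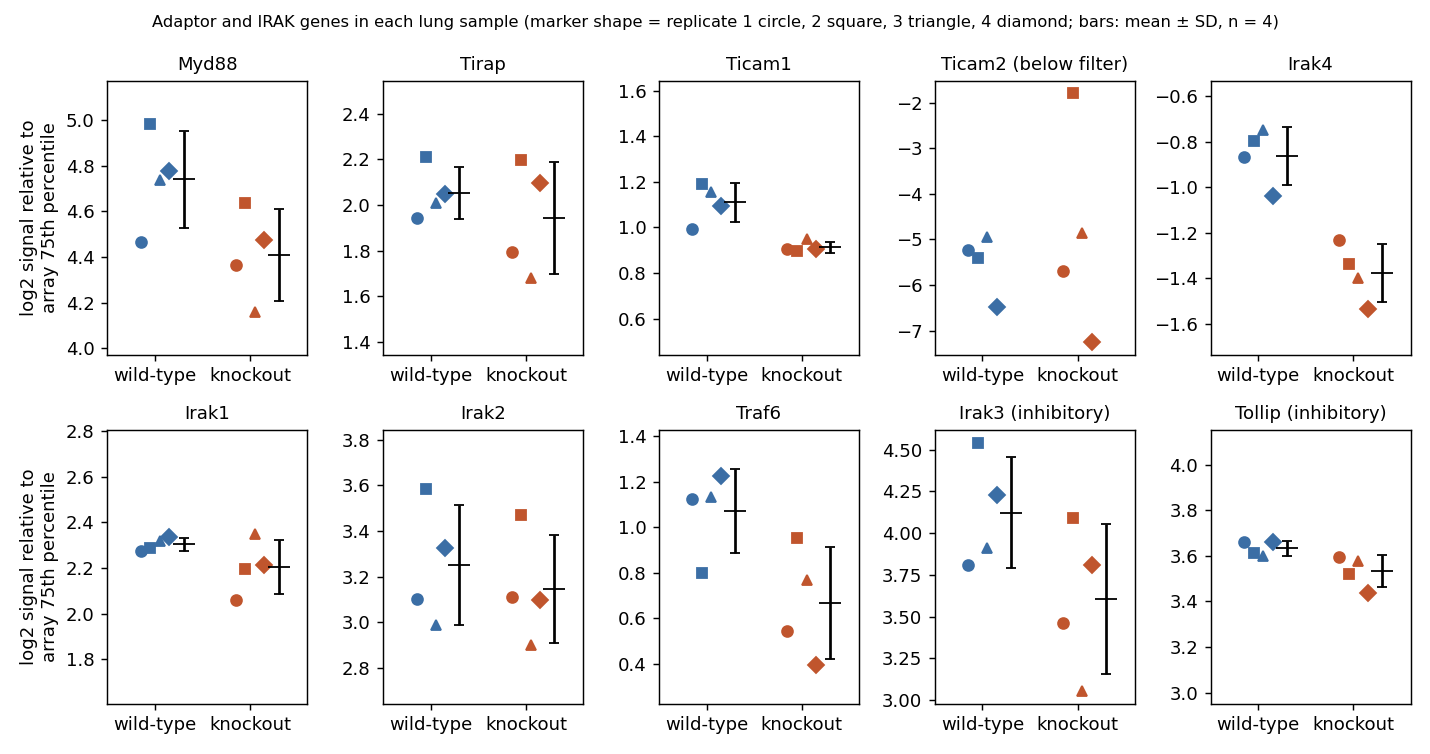
Log2 signal relative to the array's 75th percentile for each member in the 4 wild-type (blue) and 4 knockout (orange-red) lungs, with mean ± SD; marker shape gives the replicate number. The panels span at least 1.2 log2 units, Irak4, Ticam1 and Tollip show no overlap between groups, and Ticam2, drawn on a wider axis without a mean, was above background on 1 array of each group.

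Among the TIR adaptors, Myd88, the adaptor shared by nearly all Toll-like receptors and the interleukin-1 receptors, had levels of 4.47, 4.98, 4.74 and 4.78 in the wild-type lungs (replicates 1 to 4, the order used throughout) and of 4.37, 4.64, 4.16 and 4.47 in the knockout lungs. Replicate 2 was the highest of each group, and wild-type replicate 1 lay among the knockout values. The difference was -0.33 ± 0.14 (SE; 95% confidence interval -0.65 to -0.01; limma, adjusted p = 0.201). Myd88 was the member with the most spots, 10 on each array, all of the same probe (chr9:119245322-119245381, minus strand).

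Tirap, the bridge between TLR4 or TLR2 and Myd88, read 1.94, 2.21, 2.01 and 2.05 in wild-type and 1.80, 2.20, 1.68 and 2.10 in knockout lungs, with knockout replicates 1 and 3 below every wild-type value and the other two within the wild-type range. Its difference was -0.11 ± 0.13 (SE; interval -0.41 to 0.19; limma, adjusted p = 0.631).

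Ticam1, the TRIF adaptor of TLR3 and TLR4, read 0.99, 1.19, 1.16 and 1.095 in wild-type lungs and 0.90, 0.89, 0.95 and 0.90 in knockout lungs. All knockout values lay below all wild-type values, close together, with an SD of 0.025 against 0.086. The difference was small, -0.20 ± 0.069 (SE; interval -0.36 to -0.04; limma, adjusted p = 0.151).

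Ticam2, the bridge from TLR4 to Ticam1, was near background. Its 1 probe was well above background on 1 array of each group, wild-type replicate 3 (-4.95) and knockout replicate 2 (-1.79), and ran from -7.26 to -4.85 on the other 6. It did not pass the filter on dim probes, so no fold is given, and the groups overlapped (exact permutation p = 0.743, two-sided).

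Irak4, the kinase that Myd88 recruits directly and on which the Myddosome depends, had the smallest p of the members, ranking 289 among 24469 genes. Its brighter probe read -0.87, -0.80, -0.75 and -1.04 in wild-type lungs and -1.23, -1.34, -1.40 and -1.53 in knockout lungs. The lowest wild-type value lay above the highest knockout value. The difference was -0.51 ± 0.097 (SE; interval -0.74 to -0.29; limma, adjusted p = 0.0625), which is 1.43-fold. The other probe, printed above with its 60 bases, read -2.22, -2.22, -2.30 and -2.45 in wild-type and -2.58, -2.63, -2.56 and -2.74 in knockout lungs. These groups did not overlap either, and the difference was -0.33 ± 0.084 (SE; limma over all probes, adjusted p = 0.0838). Irak4 was past the threshold with normexp background correction (-0.40, adjusted p = 0.047 with limma), with an intensity trend in the variance (adjusted p = 0.0492) and when dim probes were kept (adjusted p = 0.0466), and over all 19 other fits its adjusted p ran from 0.0466 to 0.236. In the same fits its difference kept between -0.57 and -0.40, while with normexp the difference of the second probe shrank to -0.14 (adjusted p = 0.197).

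**Figure D2:**
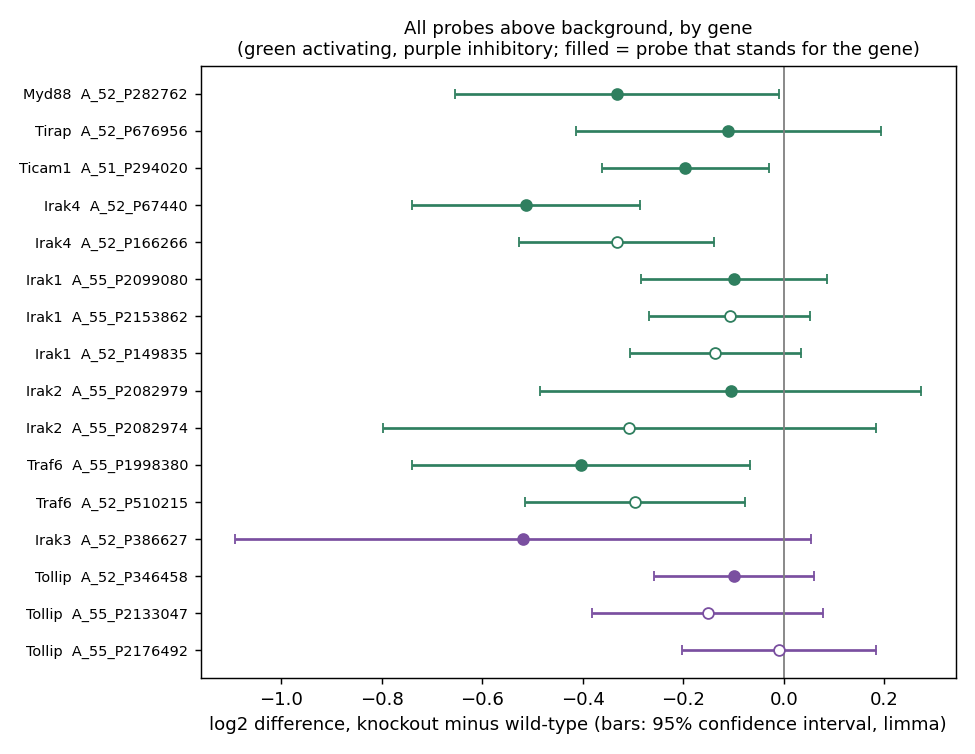
Log2 difference, knockout minus wild-type, with its 95% confidence interval for each of the 16 member probes above background, activating genes in green and inhibitory genes in purple; filled points are the probes that stand for the gene. All 16 points lie below 0, and the intervals of both Irak4 and both Traf6 probes, of Myd88 and of Ticam1 do not reach it.

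Irak1, the kinase that Irak4 phosphorylates and that binds Traf6, had small differences on all of its 3 probes. The brightest (chrX:71259533-71259592, minus strand) read 2.27, 2.29, 2.32 and 2.34 in wild-type and 2.06, 2.20, 2.35 and 2.21 in knockout lungs, and knockout replicate 3 exceeded every wild-type sample. Its difference was -0.10 ± 0.078 (SE; interval -0.28 to 0.08; limma, adjusted p = 0.458). The other probes differed by -0.11 and -0.14, with overlapping groups.

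Irak2, the kinase that sustains the response late after stimulation, read 3.10, 3.59, 2.99 and 3.33 in wild-type and 3.11, 3.47, 2.90 and 3.10 in knockout lungs on its brightest probe. The groups overlapped, and the difference was -0.11 ± 0.16 (SE; interval -0.48 to 0.27; limma, adjusted p = 0.723). The other probe read -1.04, -0.39, -1.19 and -0.87 in wild-type and -1.38, -0.76, -1.48 and -1.11 in knockout lungs. On both probes replicate 2 was the highest and replicate 3 the lowest of each group. The second probe differed by -0.31 ± 0.21 (SE; interval -0.80 to 0.18; limma over all probes, adjusted p = 0.41). Without wild-type replicate 2 the first probe gave 0.0062, the only sign change of a member gene under the alternatives, and the second stayed negative in every leave-one-out (-0.45 to -0.15).

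Traf6, the ubiquitin ligase on which the Myddosome signal converges, read 1.12, 0.80, 1.13 and 1.22 in wild-type and 0.54, 0.95, 0.77 and 0.40 in knockout lungs on its brighter probe. Replicate 2 went against the rest here, the wild-type sample being the lowest of its group and the knockout sample the highest. The difference was -0.40 ± 0.15 (SE; interval -0.74 to -0.07; limma, adjusted p = 0.156). The second probe, which starts 21454 bases away, read -0.02, 0.05, 0.05 and 0.08 in wild-type and -0.29, -0.06, -0.21 and -0.46 in knockout lungs. Here the groups were apart, and the difference was -0.30 ± 0.095 (SE; limma over all probes, adjusted p = 0.125). The brighter probe is annotated to a cDNA clone of the gene and not to a RefSeq transcript.

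Of the inhibitory members, Irak3, which macrophages and monocytes express and which LPS induces, differed by about as much as Irak4 with a far larger spread. It read 3.81, 4.54, 3.91 and 4.23 in wild-type lungs and 3.46, 4.09, 3.05 and 3.81 in knockout lungs (chr10:119578999-119579058, minus strand). Knockout replicates 2 and 4 lay within the wild-type range. The difference was -0.52 ± 0.25 (SE; interval -1.09 to 0.06; limma, adjusted p = 0.249), and leaving out single samples moved it from -0.34 without knockout replicate 3 to -0.68 without knockout replicate 2.

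**Figure D3:**
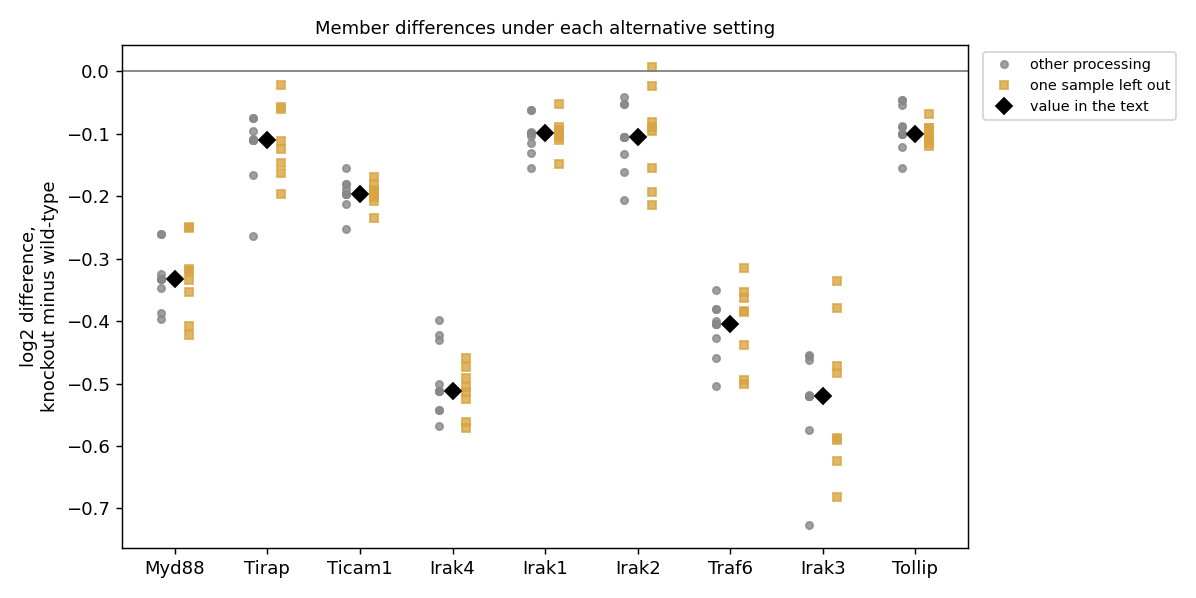
Log2 difference, knockout minus wild-type, of each measured member (black diamond) with its values under other processing (grey) and with 1 sample left out (yellow). The grey points include the fit without the 3 samples with the highest cardiac muscle markers, which gave the lowest Irak3 value (-0.73). Irak2 without wild-type replicate 2 (0.0062) is the only point above 0, and Irak3 spreads the most, from -0.73 to -0.34.

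Tollip, the ubiquitin-binding adaptor that dampens IRAK1, read 3.66, 3.61, 3.60 and 3.66 in wild-type and 3.60, 3.52, 3.58 and 3.44 in knockout lungs on its brightest probe (chr7:149067713-149067772, minus strand). The groups did not overlap, by 3.600 against 3.595 at the nearest samples, and the difference was -0.10 ± 0.067 (SE; interval -0.25 to 0.05; limma, adjusted p = 0.387). The other 2 probes differed by -0.15 and -0.01 with overlapping groups, and the last of these was at 0.01 with normexp.

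Both roles read lower in the knockout lungs by sign. At an unadjusted p under 0.05 in limma, 4 of the 7 activating and 0 of the 2 inhibitory genes were lower, against 13.4% of all genes. The median difference was -0.20 for the 7 activating genes measured, and Irak3 and Tollip stood at -0.52 and -0.10. Averaged over the 7 activating genes, each relative to its wild-type mean, the samples stood at -0.09, 0.09, -0.01 and 0.01 for wild-type and at -0.30, -0.09, -0.32 and -0.29 for knockout. The 2 inhibitory genes averaged -0.14, 0.20, -0.12 and 0.07 in wild-type and -0.35, -0.07, -0.56 and -0.25 in knockout replicates. Replicate 2 was the highest of its group in both averages, and knockout replicate 2 lay just below the lowest wild-type sample for the activating genes and within the wild-type samples for the inhibitory ones. These averages are descriptions, and no test was made of them.

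**Figure D4:**
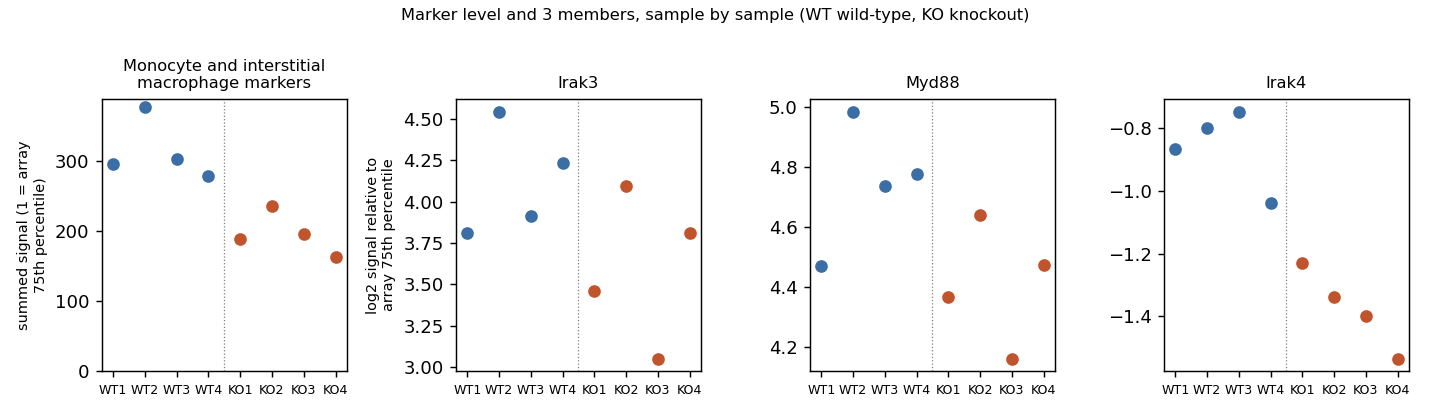
Summed signal of 16 monocyte and interstitial macrophage markers (left, 1 = the array's 75th percentile) and log2 signal of Irak3, Myd88 and Irak4 in each sample, wild-type in blue and knockout in orange-red. The markers, Irak3 and Myd88 are highest in replicate 2 of each group, and Irak4 is not. Knockout replicate 4 has the lowest marker sum, while its Irak3 and Myd88 exceed knockout replicates 1 and 3.

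Cell type markers were read on the same arrays, and no gene of any marker list passed over all genes (limma, smallest adjusted p = 0.0568). By sign, 54.3% of all genes were lower. At an unadjusted p under 0.05 in limma, which 13.4% of all genes reached as lower and 10.2% as higher, the lists differed widely. Of the monocyte and interstitial macrophage list, 15 of 16 measured genes were lower, 13 of them by the unadjusted p, with a median of -0.62. Their summed signal was 278 to 377 times the array's 75th percentile in wild-type and 163 to 236 times in knockout lungs. Each group's highest value was in replicate 2, as for Myd88, Tirap, Irak2 and Irak3, and also for the cardiac muscle markers (438 and 589). The lowest sum was in knockout replicate 4 (163), where Myd88 (4.47) and Irak3 (3.81) exceeded knockout replicates 1 and 3. Neutrophil markers had a summed signal of 942 to 1060 in wild-type and 972 to 1100 in knockout lungs. Their median difference was -0.04 over 15 genes, with single genes from -1.1 to 1.11 and 2 lower by the unadjusted p. Such sums weigh the brightest genes of a list most, so similar sums do not show that each gene was alike. Alveolar macrophage markers were lower in 7 of 11 cases, 4 by the unadjusted p (103 to 166 against 102 to 174). Alveolar type 2 markers were lower in 9 of 12, 5 by the unadjusted p (1240 to 1470 against 1110 to 1540), and endothelial markers in 7 of 12, 1 by the unadjusted p (340 to 549 against 373 to 657). Lymphocyte markers were lower in 17 of 17 cases, 6 by the unadjusted p (46.4 to 53.1 against 29.1 to 48.3), and alveolar type 1 markers in 13 of 13, 6 by the unadjusted p (453 to 602 against 329 to 563). Club cell markers were higher in 8 of 8 cases and ciliated cell markers in 10 of 10, 3 and 6 of them by the unadjusted p. No measured marker of these lists was below background on all arrays, and the part of any cell type in the members' differences was not tested. Cardiac muscle markers were higher in the knockout lungs in 13 of 14 cases, with a median of 1.66, the largest of these lists, and 0 past an unadjusted p of 0.05 in limma. Their summed signal, of 21.8 to 438 in wild-type and 88.1 to 589 in knockout lungs, was highest in wild-type replicate 2 and knockout replicates 2 and 4. A fit without these 3 samples, chosen after seeing the data, kept wild-type replicates 1, 3 and 4 and knockout replicates 1 and 3. It gave negative differences for all 9 members (median -0.26), with Irak4 at -0.43, Irak3 at -0.73, Traf6 at -0.50 and Myd88 at -0.40. Their adjusted p-values were 0.236, 0.210, 0.193 and 0.272 (limma), and 0 genes were called in either direction. The part of cardiac tissue in the members' differences was not tested.

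Upstream of the adaptors, 15 of 18 receptors and co-receptors above background on at least 3 arrays of both groups were lower, with a median of -0.35. Of all genes above background in this way, 12073 of 22860 were lower, with a median of -0.02. No receptor passed over all genes (limma; by the unadjusted p, 7 lower and 1 higher, against 2910 and 2414 of the 22860 genes). Tlr8 and Il1rl2 passed the filter through the wild-type arrays alone and are left out of these counts. Tlr4, the LPS receptor, went from 0.85 ± 0.19 to 0.31 ± 0.16 (SD, n = 4 per group), a difference of -0.54 ± 0.12 (SE; limma, adjusted p = 0.0747). Tlr8 was well above background on 3 of 4 wild-type arrays and 0 of 4 knockout arrays. Its groups overlapped, with wild-type replicate 4 at -5.08 and knockout replicate 2 at -5.03. No fold or p is given for it. Il1rl1, the receptor for interleukin-33, went the other way, from -1.01 ± 0.24 to -0.32 ± 0.15 (SD; limma, adjusted p = 0.0628).

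Downstream, the MyD88 branch was lower in 11 of 16 cases with a median of -0.08, against 54.3% and -0.03 over all genes. By the unadjusted p 3 were lower and 1 was higher, against 13.4% and 10.2% of all genes. Irf5, a transcription factor that Myd88 and Traf6 activate, differed by -0.79 ± 0.19 (SE; limma, adjusted p = 0.079), and the IκB kinase subunits Ikbkb and Ikbkg by -0.31 ± 0.091 and -0.26 ± 0.082. The TRIF branch was lower in 10 of 12 cases (54.3% of all genes) with a median of -0.18, 3 of them at an unadjusted p under 0.05 (13.4% of all genes). Its members with the smallest p were the kinase Ripk1 (-0.30 ± 0.096) and the death-domain adaptors Fadd (-0.23 ± 0.075) and Tradd (-0.28 ± 0.094, SE). No gene of either branch passed (limma, smallest adjusted p = 0.079 and 0.126).

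Negative regulators other than Irak3 and Tollip were lower in 19 of 23 cases with a median of -0.20, against 54.3% and -0.03 over all genes. By the unadjusted p 5 were lower and 1 was higher, against 13.4% and 10.2% of all genes. Atf3, a repressor of inflammatory genes, differed by -0.81 ± 0.19, the phosphatase Ptpn6 by -0.72 ± 0.20 and the adaptor Dok3 by -0.42 ± 0.13 (SE; limma, smallest adjusted p = 0.0788).

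Of the targets, those read mainly through Myd88 were lower in 10 of 15 cases, with a median of -0.41 and a wide spread. Among genes above background on at least 3 arrays of both groups, 12073 of 22860 were lower. Il12b passed the filter through the wild-type arrays alone and is left out of these counts. Of the 15, 2 were lower by the unadjusted p, about the share among genes above background in both groups (2910 of 22860). The neutrophil chemokine Cxcl2 differed by -0.89 ± 0.36 and the alarmin cytokine Il1a by -1.15 ± 0.49 (SE; limma, smallest adjusted p = 0.183). Saa3, an acute-phase protein, differed by 0.17 ± 0.080 (SE). Its level was 9.06 in wild-type and 9.23 in knockout lungs, near those of Sftpc and Scgb1a1. The log2 75th percentile subtracted from each array ran from 9.34 to 9.56 in wild-type and from 9.17 to 9.37 in knockout. The part of this scaling in the Saa3 difference was not tested. Targets of the TRIF and interferon arm had a median of -0.10, with 10 of 15 lower (54.3% of all genes). By the unadjusted p 2 were lower and 1 was higher, shares near or below those of all genes (13.4% and 10.2%). The interferon-inducible Oas1a and Oasl1 differed by -0.60 ± 0.21 and -0.61 ± 0.25. Cxcl9, a T cell chemokine induced mainly by interferon-γ, went from 1.51 ± 0.73 to 3.23 ± 0.25 (SD, n = 4 per group), a difference of 1.71 ± 0.34 (SE; limma, adjusted p = 0.0628), with every knockout sample above every wild-type sample.

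**Figure D5:**
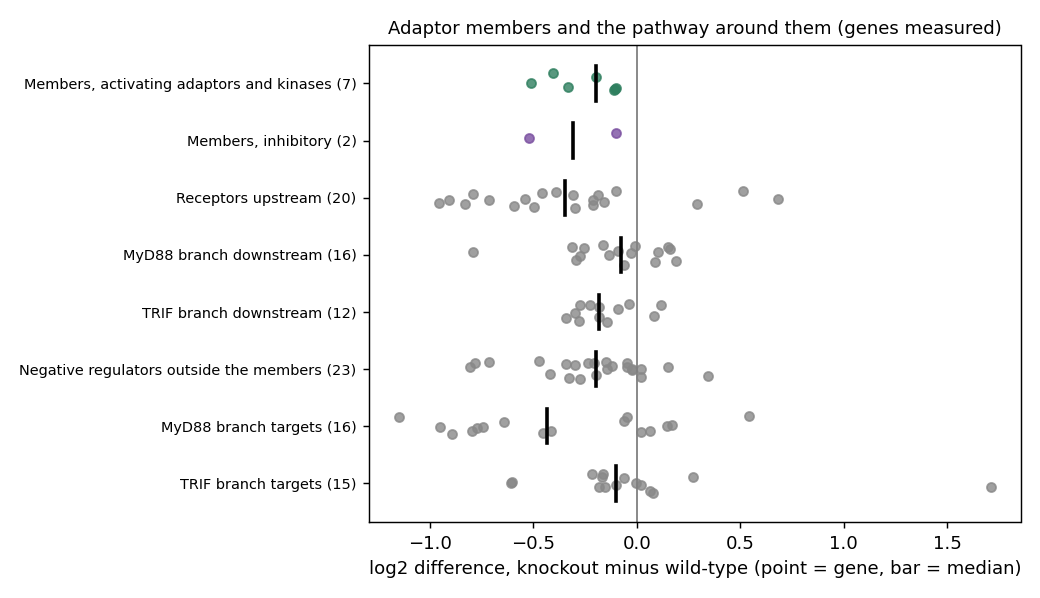
Log2 difference, knockout minus wild-type, of every measured gene (point) of the member sets and the surrounding pathway lists, with the list's median (bar). Tlr8, Il1rl2 and Il12b, left out of the counts in the text, are drawn here and enter the medians. The bar of the MyD88 branch targets is therefore at -0.43 over 16 genes. All 9 members lie below 0, while each surrounding list has genes on both sides, Cxcl9 at 1.71 being the farthest above.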

How the data were processed

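Per the labels' protocols, total RNA of whole lung was labelled with Cy3 for single-colour arrays. Per the submitters' processing notes, the scanner software was Agilent Feature Extraction 10.7.1.1. The deposited scanner files give intensity values per spot, background-subtracted and detrended, with a surrogate value for undetected signal. The deposited value table holds log2 values whose columns share 1 distribution (median 5.64) and correlate with log2 processed signal at r above 0.999. The authors' scaling steps are otherwise not given in the sources used here.

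Control and outlier spots were left out (154 to 245 outliers per array) and spots of a probe averaged. The array's 75th percentile was subtracted from log2 processed signal. A probe stayed in if at least 3 arrays of either genotype (of 4) had it well above background, which left 33876 probes, and the brightest probe stood for each gene (24469 genes). No probe was saturated. The genotypes were fitted in R 4.3.3 by limma 3.58.1, two-sided. P-values were adjusted by Benjamini-Hochberg across genes or, for single probes, across probes, at a threshold of 0.05. P-values weigh the genotype difference against the spread between samples of a genotype, moderated across genes by limma, and the number of samples limits the precision. They do not separate genotype from slide row. The fit was tested on simulated data. Where a group was above background on no array, no fold is given in the text.

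The members and lists were chosen with earlier results of these data known. All members with every probe were named, and of each surrounding list the 3 genes with the smallest p. Alternatives covered background correction, scaling, filters, the variance model, the probe rule, the threshold, the replicate number as a block and leaving out samples. All arrays share 1 slide, so no slide block could be fitted. Figures used matplotlib 3.10.9.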

Additional observations from a re-analysis of the deposited data

Results flagged for a closer look

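In 2 of 34 groups of 4 samples (17 member probes in each genotype), 1 sample lay far from the other 3, and chance alone gives this in about 1 group in 20. For Ticam1 this was knockout replicate 3 at 0.95, which stood above the other knockout samples (0.89 to 0.90) within a narrow range. For the dimmest Irak1 probe it was knockout replicate 3 at 0.75, above the other knockout samples (0.62 to 0.64).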

How the results depend on the processing

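Under the 19 alternative fits, 8 of the 9 measured members stayed lower in every one, and Irak2 in 18, the exception being 0.0062 without wild-type replicate 2 (range with 1 sample left out -0.21 to 0.0062, on its probe A_55_P2082979). No member was called lower in the 8 fits that leave out a sample (0 to 0), with quantile normalization, median centring, the deposited value table, a filter on all 8 arrays, array weights or the mean of a gene's probes, while 1 gene and 1 probe, both of Irak4, were called with normexp (-0.40), with no filter and with an intensity trend (-0.51 in both), and 1 gene at a threshold of 0.1.

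Counts over all genes moved more. Genes called higher and lower were 228 and 284 with normexp, 2737 and 786 with no filter, 59 and 67 with a filter on all 8 arrays, 160 and 257 with a trend, 123 and 139 with array weights, 3 and 3 with the mean of probes, 747 and 1070 at a threshold of 0.1, 1 and 0 at 0.01, and 0 and 0 without the 3 samples richest in cardiac markers, a setting chosen after seeing the data. Median centring called 11 lower. Leaving out 1 sample gave 1 to 11 higher and 0 to 12 lower. The cause was not tested. The Tollip probe A_55_P2176492 turned to 0.0104 with normexp, to 0.0376 without those 3 samples, and ranged from -0.045 to 0.0301 over the leave-one-out fits.

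With the replicate number as a block, 10 genes were called higher and 33 lower, and 0 members. Deviations of same-numbered samples correlated at 0.129, 0.47, 0.0118 and -0.291 for replicates 1 to 4. Same-numbered samples also shared a slide column. These mixed correlations cannot settle whether the numbers pair the samples. Dim probes limit Ticam2 and Tlr8.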
